A study of Mus musculus with 2 samples.

Results

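The 10 genes described here belong to Notch signalling and were followed across the cell classes of the young mouse brain: the receptors Notch1, Notch2 and Notch3, the ligands Dll1, Dll3 and Jag1, the transcriptional targets Hes1, Hes5 and Heyl, and the fringe enzyme Lfng. They were chosen by symbol, and each of the 10 symbols had 1 row among the 32285 features of the count tables. The values come from brains of C57BL/J mice (strain as labelled) at postnatal day 10, with no treatment, mutation or control group. Fresh cell suspensions were profiled by droplet-based sequencing of the 3′ ends of messenger RNA in 2 libraries, called library 1 and library 2 after their replicate numbers. The series names 6 mice and ties none of them to a library. The p-values below thus rest only on how far differences between classes varied between 2 libraries. That spread was estimated over all classes of a fit and may be technical.

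Library 1 comprised 12978 barcodes and 51452085 unique molecular identifiers (UMIs, each standing for a captured RNA molecule), and library 2 comprised 19508 barcodes and 45532691 UMIs. Median depth per barcode was 3446 and 1470 UMIs, and 90 barcode sequences occurred in both. After filtering, 11861 and 14067 cells remained and fell into 30 clusters, of which 5 stayed unnamed because over 85% of their cells came from 1 library and they were low in UMIs or had none of their markers among their leading genes. Library 2 stood apart in this way: it held most cells of 4 of these 5 clusters, and its endothelial-like cells held 1266.5 CPM of red blood cell marker RNA, where those of library 1 held 2.72 CPM (CPM being UMIs of a gene per class sum, brought to the same total in every class and library). The other clusters made 17 classes, named from marker genes with the suffix "-like", with 11761 cells in library 1 and 9255 in library 2. Values are printed for both libraries throughout.

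Notch receptors sit in the membrane of the receiving cell and are activated by ligands on the surface of a neighbouring sending cell. Binding leads to cleavage of the receptor, and the freed intracellular domain joins the DNA-binding protein RBPJ in the nucleus and switches on repressors of the Hes and Hey families. In the brain the pathway is known for keeping neural progenitors undifferentiated, for promoting astrocyte over neuronal fate and for maintaining the smooth muscle cells and pericytes of vessels.

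All 10 genes are protein-coding in GENCODE release M21 on build mm10 (GRCm38). The receptor genes lie at chr2:26457903-26516663 (Notch1, minus strand), chr3:98013527-98150361 (Notch2, plus strand) and chr17:32120820-32166852 (Notch3, minus strand). The ligand genes lie at chr17:15367354-15376872 (Dll1), chr7:28293553-28302238 (Dll3) and chr2:137081456-137116644 (Jag1), all on the minus strand. On the plus strand lie Hes1 at chr16:30064384-30067796, Hes5 at chr4:154960923-154962371, Heyl at chr4:123233556-123249875 and Lfng at chr5:140607320-140615545. Notch1, Notch3 and Hes5 overlap genes on the opposite strand that also have rows in the tables (0610009E02Rik and Gm13568, Gm17276, and Gm20421). The sources used here do not give how the counting treated such overlaps, and the values of these 3 genes are uncertain to that extent.

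RBPJ is known to bind the core TGGGAA. Both strands of the 250 bases before the RefSeq start site were searched for it in the 8 members with an entry in the RefSeq promoter table of GRCm38.p6 (Notch1, Notch2, Notch3, Dll1, Dll3, Jag1, Hes5 and Lfng). Hes5 and Lfng each held 2 matches, 1 on either strand, and are printed for that reason; the other 6 held none. Of all 32851 windows in the table, 21.6% held at least 1 match and 2.77% held at least 2. Capitals mark the matches, TTCCCA being the core on the opposite strand, and a match describes letters, not a bound site.
Hes5, chr4:154960673-154960922, plus strand: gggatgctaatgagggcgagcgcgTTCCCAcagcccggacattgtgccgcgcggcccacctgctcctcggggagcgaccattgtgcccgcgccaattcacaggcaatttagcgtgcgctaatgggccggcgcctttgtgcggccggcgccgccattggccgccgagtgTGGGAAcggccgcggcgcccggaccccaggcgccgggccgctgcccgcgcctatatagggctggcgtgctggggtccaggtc
Lfng, chr5:140607091-140607340, plus strand: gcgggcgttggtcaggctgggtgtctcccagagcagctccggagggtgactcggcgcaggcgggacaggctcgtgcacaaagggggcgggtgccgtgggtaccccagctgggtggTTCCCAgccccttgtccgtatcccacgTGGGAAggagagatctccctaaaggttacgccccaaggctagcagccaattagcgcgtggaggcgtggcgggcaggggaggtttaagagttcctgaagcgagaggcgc
In Hes5 the matches began 226 and 82 bases before the start site, and in Lfng 135 and 108 bases before it.

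The class names were checked against marker lists. Pericyte-like cells (530 in library 1 and 71 in library 2) held 20507.5 and 22308 CPM of 8 pericyte markers summed and also 7343 and 6958 CPM of 6 vascular smooth muscle markers, so the class covers both kinds of vessel wall cell. Endothelial-like cells (106 and 131) held 7963 and 7645 CPM of 10 endothelial markers. Astrocyte-like cells (1370 and 696) joined an Aqp4-led cluster and a Ttr-led cluster. Ttr is also a marker in the choroid plexus list. Over the whole class that list summed to 2734 CPM in astrocyte-like cells of library 1 and 163 CPM in those of library 2. The sum was not parted between the clusters, and its part in the astrocyte-like values was not tested. Neural progenitor-like cells (2026 and 916) joined a dividing cluster led by histone genes and a cluster led by Helt with Egfr, Dll1 and Gsx2 among its leading genes. They held 2598 and 2309 CPM of 10 neural progenitor markers summed and also 2538 and 3555.5 CPM of 9 neuroblast markers. In the Helt-led cluster only 3 progenitor markers, the minimum, met the naming limits given below, against 9 in the histone-led cluster. Mitosis genes summed to 413 CPM in the Helt-led cluster and 4899.8 CPM in the histone-led cluster. In the Ccnd2-led cluster, named neuroblast-like, they summed to 882 CPM. Oligodendrocyte precursor-like cells numbered 1532 and 617, ependymal-like cells 382 and 52, and neuroblast-like cells 3634 and 3349.

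Receptor RNA differed widely in breadth. Levels are CPM of the UMIs summed over a class in a library and are compared within a gene. Such sums cannot tell fewer expressing cells from less RNA per cell. Notch1, a receptor known from progenitor maintenance, was highest in pericyte-like cells (127 and 145 CPM in libraries 1 and 2), endothelial-like cells (100.7 and 139.8 CPM) and astrocyte-like cells (127 and 107 CPM). The endothelial-like range overlapped with each of the others. Pericyte-like cells (lowest 127.4 CPM) lay just above astrocyte-like cells (highest 126.7 CPM). Neural progenitor-like cells followed at 95.7 and 83.2 CPM and intermediate progenitor-like cells, dividing cells of the excitatory lineage, at 87.1 and 84.2 CPM, again with overlap. Oligodendrocyte precursor-like cells had 54.7 and 70.9 CPM, apart from the progenitors above and from ependymal-like cells below at 38.2 and 30.6 CPM. Neuron classes were lowest, with 10.6 and 8.98 CPM in excitatory neuron-like and 7.33 and 2.38 CPM in inhibitory neuron-like cells.

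Notch2 was led by glia. It reached 559.8 and 352 CPM in astrocyte-like cells, above every other class in the fit. Border macrophage-like cells (119 and 161 CPM) and ependymal-like cells (127 and 150.2 CPM) came next and overlapped, and microglia-like cells had 109 and 112 CPM. Oligodendrocyte precursor-like cells were near the bottom of the order, at 10.6 and 13.3 CPM. Notch3, a receptor of vessel wall cells whose human gene is mutated in the small vessel disease CADASIL, was the most restricted receptor: pericyte-like cells had 390.3 and 376 CPM and astrocyte-like cells 37.2 and 34.1 CPM. Ependymal-like cells had 1.86 and 3.06 CPM, and none of the other classes in the fit had a mean above 0.929 CPM.

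The 3 ligands had different leading classes. Dll1, an activating ligand, had 54.2 and 43.3 CPM in neural progenitor-like cells, 36.5 and 38.6 CPM in oligodendrocyte precursor-like cells and 34.5 and 31.4 CPM in intermediate progenitor-like cells, with no overlap between these classes. This order turned round at a coarser clustering resolution, where intermediate progenitor-like cells averaged 105 CPM and neural progenitor-like cells 25.8 CPM. Astrocyte-like cells had 9.98 and 11.02 CPM, and pericyte-like and endothelial-like cells had 1 Dll1 UMI each. Dll3, a relative of Dll1 that does not activate receptors on neighbouring cells and is known to act within its own cell, was highest in oligodendrocyte precursor-like cells at 141 and 139 CPM. Neural progenitor-like cells came second at 62.2 and 54.1 CPM. Cajal-Retzius cell-like cells had 30.7 and 34.6 CPM of Dll3 and 0 Dll1 UMIs, and excitatory neuron-like cells had 26.1 and 29.2 CPM of Dll3 and 7.09 and 8.60 CPM of Dll1.

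Jag1, an activating ligand of the Jagged family, led in the vessel classes, with 292 and 332 CPM in pericyte-like cells and 173 and 190.0 CPM in endothelial-like cells, which did not overlap. Cajal-Retzius cell-like cells (37 and 95 cells), early neurons that line the cortical surface, held 96.0 and 78.3 CPM. Neural progenitor-like cells (76.8 and 56.4 CPM) overlapped with astrocyte-like cells (59.9 and 37.0 CPM), and these with oligodendrocyte precursor-like cells (40.6 and 40.1 CPM). Fibroblast-like cells, too few for the fit with 43 and 8 cells, had 41 and 12 Jag1 UMIs, or 134.5 CPM (95% Poisson interval 96.5 to 182) and 211 CPM (109 to 368), and Notch2 at 364 CPM (299.5 to 438.5) and 457 CPM (298 to 669).

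The 3 targets also had different leading classes by mean level. Hes1, a repressor that keeps many cell types undifferentiated, was highest in endothelial-like cells at 1075.5 and 713 CPM, then in pericyte-like cells at 396 and 507 CPM. Astrocyte-like (198 and 170.0 CPM), ependymal-like (183 and 156 CPM) and microglia-like cells (167 and 153 CPM) formed an overlapping run, above neural progenitor-like cells at 58.6 and 38.1 CPM. Hes5, the related repressor of neural cells, had the reverse bias: 841 and 576 CPM in neural progenitor-like cells and 662.5 and 634 CPM in astrocyte-like cells, with overlap, against 7.71 and 3.73 CPM in pericyte-like cells and 16.3 and 9.50 CPM in endothelial-like cells. Intermediate progenitor-like (373 and 220 CPM), neuroblast-like (333 and 243 CPM) and oligodendrocyte precursor-like cells (209.8 and 229 CPM) lay between. The place of intermediate progenitor-like cells depended on the processing, their mean Hes5 being 994 CPM at the coarser resolution and 586 CPM with doublets kept, against 296 CPM here. Heyl, a Hey-family repressor, had 215 and 171 CPM in pericyte-like cells and 3.64 and 3.94 CPM in astrocyte-like cells, and 0 UMIs in endothelial-like cells.

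Lfng, which adds a sugar to the receptors and alters their response to Delta and Jagged ligands, was highest in astrocyte-like cells (76.7 and 85.3 CPM) and then in ependymal-like cells (28.4 and 39.9 CPM). Endothelial-like cells had 9.53 and 16.3 CPM, overlapping with neural progenitor-like cells at 13.4 and 12.2 CPM. Pericyte-like cells had 0 Lfng UMIs in both libraries. A count of 0 allows up to 1.36 CPM in library 1 and 11.2 CPM in library 2, taking 3 counts as the floor for a library, and such floors and intervals cover counting error only.

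**Figure D1:**
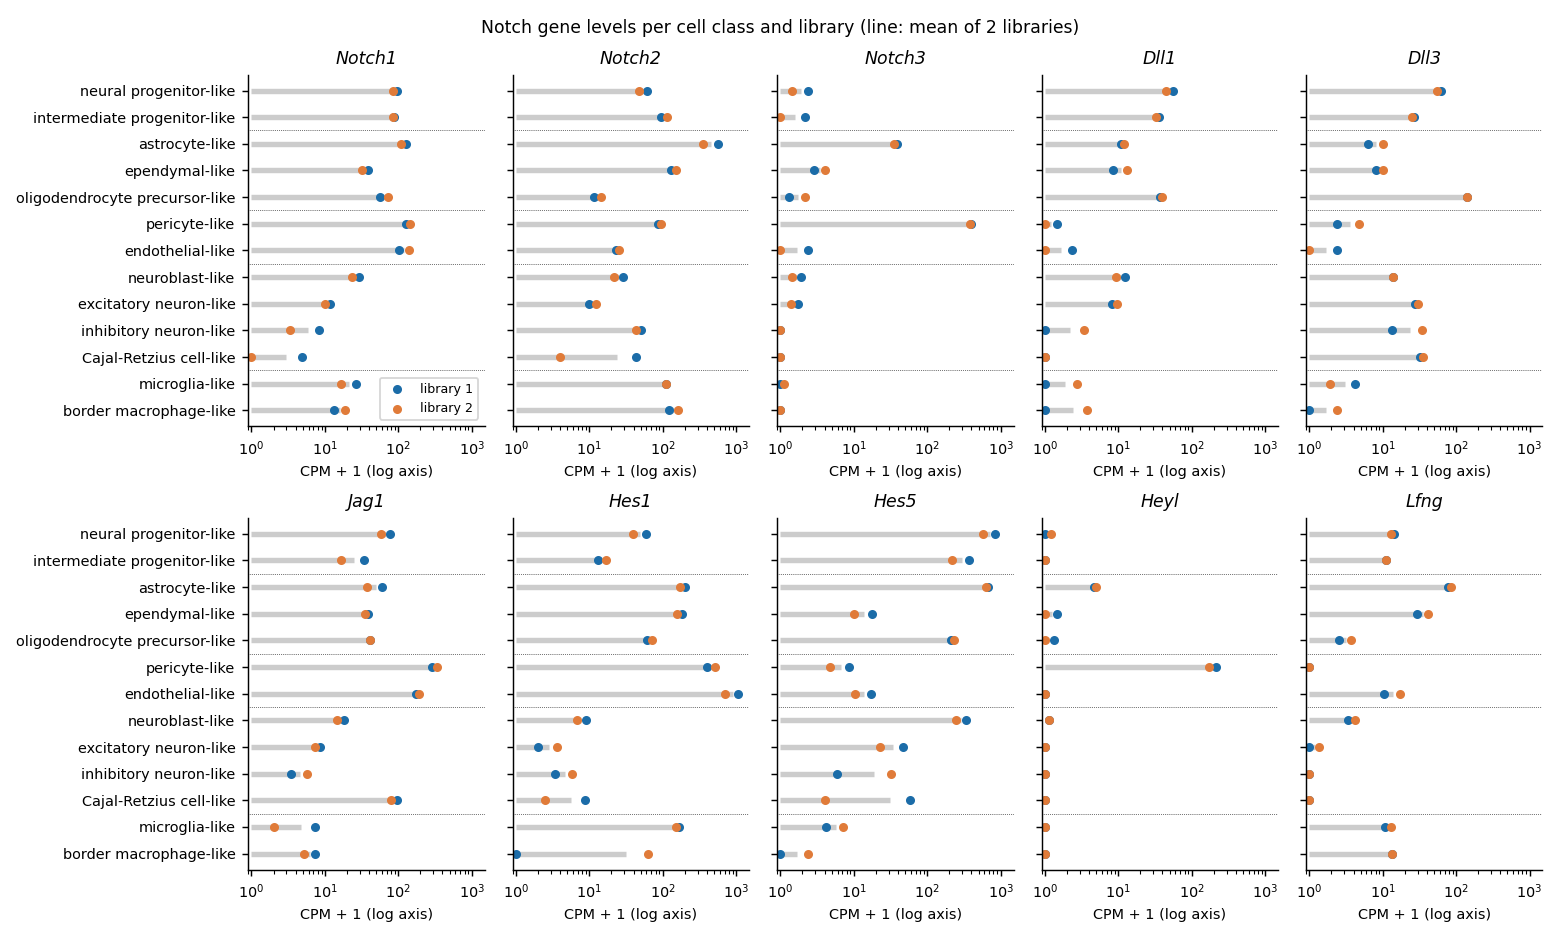
Levels of the 10 Notch genes in the 13 classes of the fit, which had 30 or more cells per library, as CPM + 1 on a log axis. Points are the 2 libraries, lines run to their mean, and dotted lines part progenitors, glia, vessel cells, neurons and immune cells; Notch3 and Heyl stand out in pericyte-like cells at 383 and 193 CPM on average, and Hes5 in neural progenitor-like and astrocyte-like cells at 708.5 and 648 CPM.

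Shares of cells were compared after every cell with at least 1000 UMIs had been thinned to 1000 UMIs. Shallower cells were left out, among them 7 and 2 pericyte-like and 2 and 10 microglia-like cells, while shares without thinning cover all cells. At that depth Notch3 was seen in 28.7% of pericyte-like cells in library 1, with a Clopper-Pearson 95% interval of 24.8 to 32.8, and in 21.7% (12.7 to 33.3) in library 2, and in 72.6% and 67.6% of them without thinning. Heyl was seen in 19.3% and 20.3% of these cells thinned, and in 55.1% and 40.8% unthinned. Free RNA in droplets gives some UMIs to cells that do not express a gene, so microglia-like cells serve as background: Notch3 was seen in 0 of 87 and 1 of 1745 of them, and Heyl in 0 of both. Median depths were 3886 and 3674 UMIs in pericyte-like cells and 3122 and 3944 UMIs in microglia-like cells.

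Among the neural classes Hes5 was seen in 37.4% and 26.8% of neural progenitor-like cells and 37.9% and 39.7% of astrocyte-like cells, against 0% and 0.688% of microglia-like cells; unthinned shares were 64.3% and 44.8%, 69.0% and 71.5%, and 1.12% and 1.82%. Dll3 was seen in 13.1% (11.4 to 14.9) and 14.0% (11.3 to 17.0) of oligodendrocyte precursor-like cells, against 0% and 0.0573% of microglia-like cells. In neural progenitor-like cells Dll1 was seen in 5.36% and 5.32% of cells thinned and 21.3% and 14.9% unthinned, against 0% and 0.229% of microglia-like cells thinned, and Dll3 in 6.01% and 4.88% thinned and 24.5% and 17.8% unthinned. Median depths were 4936.5 and 4418 UMIs in neural progenitor-like cells, 4221.5 and 4981.5 in astrocyte-like cells and 3856 and 3689 in oligodendrocyte precursor-like cells.

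Pericyte-like cells were set against the endothelial cells they cover. They were higher in Notch3, Heyl and Notch2 and lower in Hes1 and Lfng, so 5 of the 10 genes were called, where 9.08% of all 13303 genes tested were called higher, 9.26% lower and 18.3% in either direction. To be called, a gene needed an adjusted p under 0.05 in edgeR's quasi-likelihood test, a log2 fold change of 1 or more in size, and one direction shared by the libraries. Notch3 had 390.3 and 376 CPM in pericyte-like cells, against 1.36 and 0 CPM, or 1 UMI in all, in endothelial-like cells. The ratio of the pooled counts was 572, with a 95% counting interval of 102 to 22615, and the edgeR adjusted p was 4.60e-93. Heyl had 521 UMIs in pericyte-like cells and 0 in endothelial-like cells and was at least 103-fold higher, on a floor of 3 counts over both libraries (edgeR adjusted p = 1.52e-40).

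Notch2 had 85.7 and 93.1 CPM in pericyte-like cells, against 21.8 and 24.4 CPM in endothelial-like cells, a log2 fold change of 1.67 ± 0.28 (edgeR adjusted p = 6.27e-08). Values after ± are approximate standard errors, worked back from the fold change and F statistic of edgeR. Hes1 went the other way, with 396 and 507 CPM in pericyte-like cells and 1075.5 and 713 CPM in endothelial-like cells (log2 fold change -1.27 ± 0.13, edgeR adjusted p = 3.38e-20). Lfng had 0 UMIs in pericyte-like cells and 9.53 and 16.3 CPM in endothelial-like cells, at least 10.7-fold lower on the same floor. Both classes carried Jag1: its log2 fold change was 0.49 ± 0.16, under the limit for a call although its edgeR adjusted p was 0.0111. Notch1 gave -0.08 ± 0.19 (edgeR adjusted p = 0.869), with overlapping libraries. DESeq2 kept the direction of Hes1 and Heyl without calling them (adjusted p = 0.0917 and 0.398). Endothelial markers summed to 403 and 376 CPM in pericyte-like cells and pericyte markers to 120 and 2.72 CPM in endothelial-like cells; their part in these differences was not tested.

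Jag1 was uneven within the wall cells. At a finer clustering resolution the class parted into smooth muscle-like cells (73 and 11 cells) and pericyte-like cells in the narrow sense (457 and 60 cells), with Acta2, a contractile actin, at 14016.9 and 11806 CPM in the first, against 311 and 171 CPM in the second. Jag1 had 777 and 946 CPM in the smooth muscle-like cells, against 192 and 203 CPM in the pericyte-like cells. Notch1 ran the other way, at 58.5 and 64.5 CPM, against 141.5 and 162 CPM. Notch3 was abundant in both, with 428 and 516 CPM in the smooth muscle-like cells and 382.5 and 347 CPM in the pericyte-like cells. Heyl had 266 and 129 CPM in the first and 205 and 180.2 CPM in the second, with overlap. These values were not tested, since 11 smooth muscle-like cells in library 2 are too few for the fit.

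Of 44 further genes of the pathway that could be tested, 7 were higher and 8 lower in pericyte-like than in endothelial-like cells, with a median log2 fold change of -0.07 beside 0.00 for all genes. In either direction 34.1% of these genes were called, beside 18.3% of all genes. The 4 with the largest change were Dlk1, a non-canonical relative of the ligands, the ligand Jag2, the target Hey2 and the fringe enzyme Mfng. Dlk1 had 105 and 119 CPM in pericyte-like cells and 0 UMIs in endothelial-like cells, at least 52.1-fold higher. Hey2 had 79.8 and 96.8 CPM in pericyte-like cells, against 0 and 1.36 CPM in endothelial-like cells. Jag2 had 0.907 and 0 CPM in pericyte-like cells, against 87.1 and 109 CPM in endothelial-like cells, and Mfng 0.453 and 7.45 CPM, against 89.9 and 103 CPM. Dll4, an endothelial ligand named after its values were seen, had 8.16 and 7.45 CPM in pericyte-like cells and 108 and 57.0 CPM in endothelial-like cells (log2 fold change -3.78, edgeR adjusted p = 1.80e-18).

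**Figure D2:**
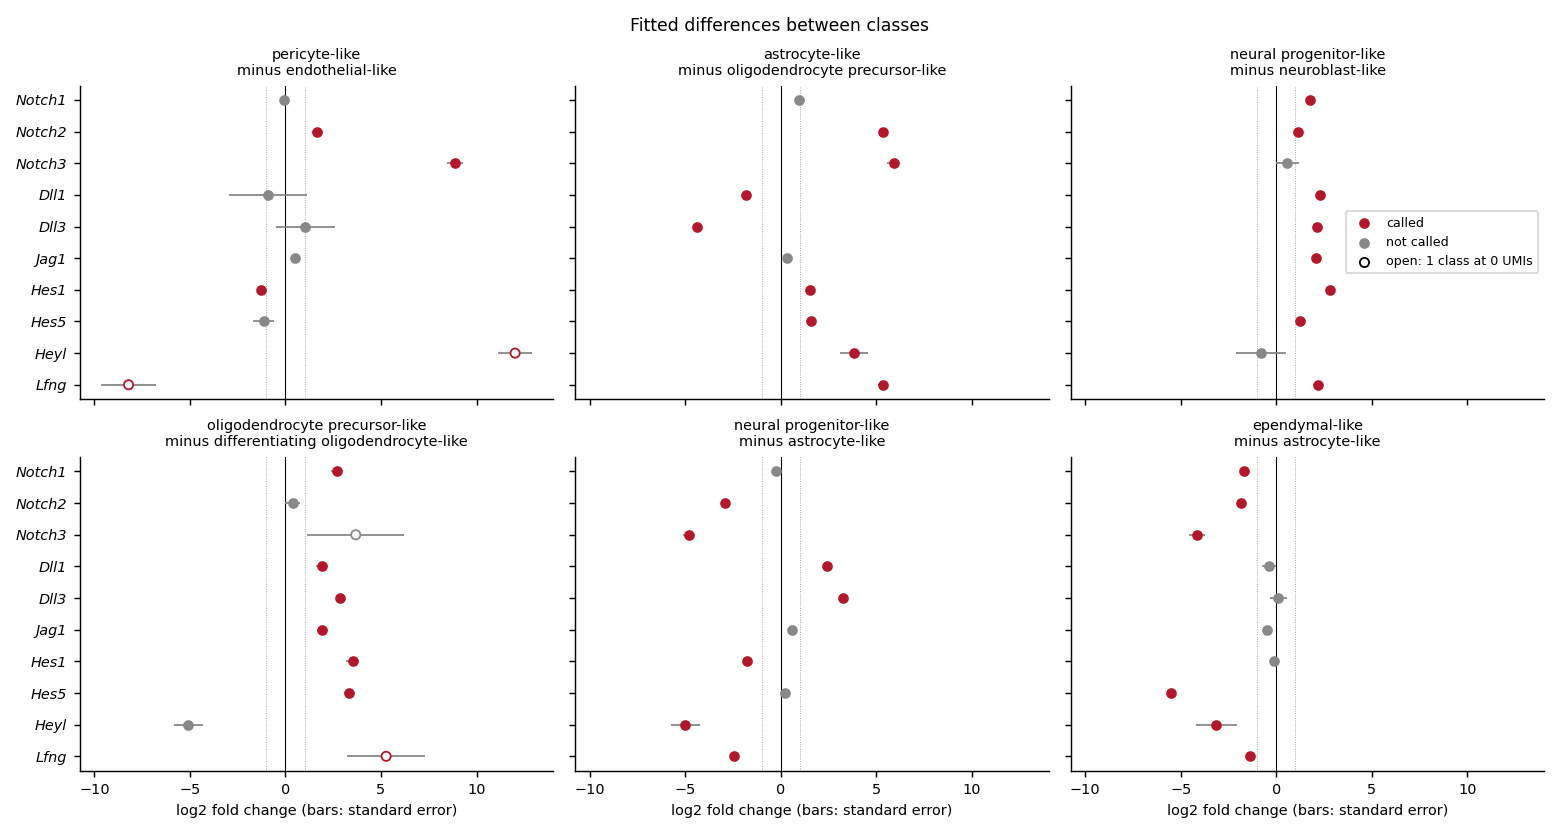
Fitted log2 fold changes of the 10 genes in 6 comparisons of classes, the class named first minus the class named below it. Bars are approximate standard errors, worked back from the fold change and F statistic of edgeR. Red points passed the call, grey points did not, open points had 0 UMIs in 1 class, where the fitted value depends on the prior count, and dotted lines mark a log2 fold change of 1 in either direction; all 8 called genes are higher in neural progenitor-like than in neuroblast-like cells.

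Between the main glial classes the receptors and the Delta ligands that were called lay on opposite sides. Astrocyte-like cells were higher in Notch2, Notch3, Hes1, Hes5, Heyl and Lfng, and lower in Dll1 and Dll3, than oligodendrocyte precursor-like cells. That made 8 of 10 genes called, beside 12.7% of all genes called higher, 8.67% lower and 21.3% in either direction. Notch2 had 559.8 and 352 CPM in astrocyte-like cells, against 10.6 and 13.3 CPM in oligodendrocyte precursor-like cells, a 38.2-fold ratio of means (log2 fold change 5.32 ± 0.16, edgeR adjusted p = 1.92e-228). Lfng had 76.7 and 85.3 CPM, against 1.56 and 2.73 CPM (5.33 ± 0.24). Notch3 had 37.2 and 34.1 CPM, against 0.312 and 1.17 CPM (5.90 ± 0.35). Pericyte markers summed to 69.4 and 25.4 CPM in astrocyte-like cells, and their part in the difference was not tested.

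Dll3 was the largest difference in favour of the precursors, with 5.23 and 9.18 CPM in astrocyte-like cells and 141 and 139 CPM in oligodendrocyte precursor-like cells (log2 fold change -4.37 ± 0.18, edgeR adjusted p = 3.74e-130). Dll1 had 9.98 and 11.02 CPM in astrocyte-like cells, against 36.5 and 38.6 CPM in the precursors (-1.84 ± 0.19). Both targets were higher in astrocyte-like cells, Hes5 by a log2 fold change of 1.58 ± 0.12 and Hes1 by 1.53 ± 0.13. Heyl, at 38 UMIs in astrocyte-like cells and 2 in the precursors, gave 3.84 ± 0.74 (edgeR adjusted p = 1.16e-06). Jag1 did not pass the test (0.30 ± 0.15, edgeR adjusted p = 0.102), and Notch1, at 0.94 ± 0.13, fell short of the limit of 1. DESeq2 did not call Hes5 or Heyl (adjusted p = 0.0740 and 0.694). Of the 44 further pathway genes 5 were higher and 4 lower, with a median log2 fold change of 0.00, the same as for all genes. In either direction 20.5% of these genes were called, beside 21.3% of all genes. The largest 4 were all lower in astrocyte-like cells: the ligand-associated ubiquitin ligase Neurl1a (0.158 and 0.262 CPM, against 4.998 and 6.63 CPM), Jag2 (0.475 and 0.262 CPM, against 2.50 and 3.12 CPM), the ligand relative Dlk2 (0.634 and 0.262 CPM, against 2.19 and 2.34 CPM) and Mfng (4.28 and 3.15 CPM, against 13.1 and 18.7 CPM).

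The astrocyte-like class was not uniform. Its Aqp4-led cluster carried 1401.8 CPM of mitosis genes, against 109 CPM in the Ttr-led cluster. The part of dividing cells in the differences between these clusters was not tested. Notch2 had 908 and 877 CPM in the Ttr-led cluster (750 and 173 cells), against 276 and 251 CPM in the Aqp4-led cluster (620 and 523 cells), and Jag1 107 and 104 CPM, against 21.3 and 24.1 CPM. In both genes all values of the Ttr-led cluster lay above those of the other. Hes5 ran the other way, with 501 and 404 CPM in the Ttr-led cluster, against 794 and 678.5 CPM in the Aqp4-led cluster, as did Lfng at 58.2 and 50.3 CPM, against 91.7 and 92.0 CPM. Without the Aqp4-led cluster Jag1 was called higher in astrocyte-like than in precursor-like cells (1.32) and the difference in Hes5 came to 0.98, just under the limit. Without the Ttr-led cluster Notch1 was called (1.01). Library 1, with the higher Notch2 in the whole class, had 750 Ttr-led cells of 1370, and library 2 had 173 of 696.

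Neural progenitor-like cells carried more of nearly every member than the neuroblast-like cells. All but Heyl and Notch3 were called higher, 8 of 10 genes beside 12.1% of all genes called higher, 7.46% lower and 19.6% in either direction. Hes1 showed the largest difference, with 58.6 and 38.1 CPM in neural progenitor-like cells and 7.87 and 5.73 CPM in neuroblast-like cells (log2 fold change 2.80 ± 0.18, edgeR adjusted p = 1.01e-52). Dll1 had 54.2 and 43.3 CPM, against 11.3 and 8.23 CPM (2.28 ± 0.16), and Dll3 62.2 and 54.1 CPM, against 12.9 and 12.6 CPM (2.15 ± 0.15). Ligands, receptors and targets thus lay on the same side of this comparison. The remaining called genes were Lfng (2.18 ± 0.26), Jag1 (2.07 ± 0.15), Notch1 (1.76 ± 0.14), Hes5 (1.25 ± 0.12) and Notch2 (1.13 ± 0.14, just under the limit with doublets kept). Heyl and Notch3 had at most 17 UMIs in either class and were not detectably different (edgeR adjusted p = 0.653 and 0.443). Neuroblast markers summed to 2538 and 3555.5 CPM in neural progenitor-like cells and 9422 and 10126 CPM in neuroblast-like cells, and neural progenitor markers to 2598 and 2309 CPM, against 1264 and 1159.6 CPM; their part in these differences was not tested.

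The progenitor clusters stood apart in the Delta ligands. Dll1 had 109.9 and 103 CPM in the Helt-led cluster (724 and 337 cells), against 33.0 and 18.2 CPM in the dividing, histone-led cluster (1302 and 579 cells). Dll3 had 136 and 134 CPM, against 34.2 and 20.5 CPM, and in both ligands the clusters did not overlap. Hes5 had 1315 and 794 CPM in the Helt-led cluster and 660.5 and 484.5 CPM in the histone-led cluster. Notch1 was closer, at 117 and 99.3 CPM, against 87.4 and 76.5 CPM. Dll1 and Hes5 stood among the leading 10 genes of the Helt-led cluster, so their levels there describe that cluster and are no test of it.

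Within the neuroblast-like class Hes5 differed widely between clusters. The Ccnd2-led cluster (404 and 273 cells), whose cells carried 882 CPM of mitosis genes, had 1059.8 and 826 CPM, the Dlx6os1-led cluster 318 and 268 CPM, the Foxp2-led cluster 42.2 and 49.8 CPM and the Prokr2-led cluster 25.5 and 25.7 CPM. Hes5 was among the leading 10 genes of the Ccnd2-led cluster, so this too is a description. The Ccnd2-led cells thus overlapped with the Helt-led progenitors in Hes5, while their Hes1 was at 23.9 and 18.4 CPM, against 87.9 and 59.0 CPM in those progenitors. The call on Hes5 rested on the Helt-led cluster, since without it the log2 fold change was 0.98, and at a coarser resolution it was 0.91. DESeq2 did not call it either (adjusted p = 0.161). Levels in neural progenitor-like cells moved with the processing: Dll1 averaged 25.8 CPM and Dll3 26.4 CPM at the coarser resolution, and 98.6 and 141 CPM with doublets kept, where the class held 902 and 422 cells. At the coarser resolution intermediate progenitor-like cells held 105 CPM of Dll1 and 127 CPM of Dll3.

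**Figure D3:**
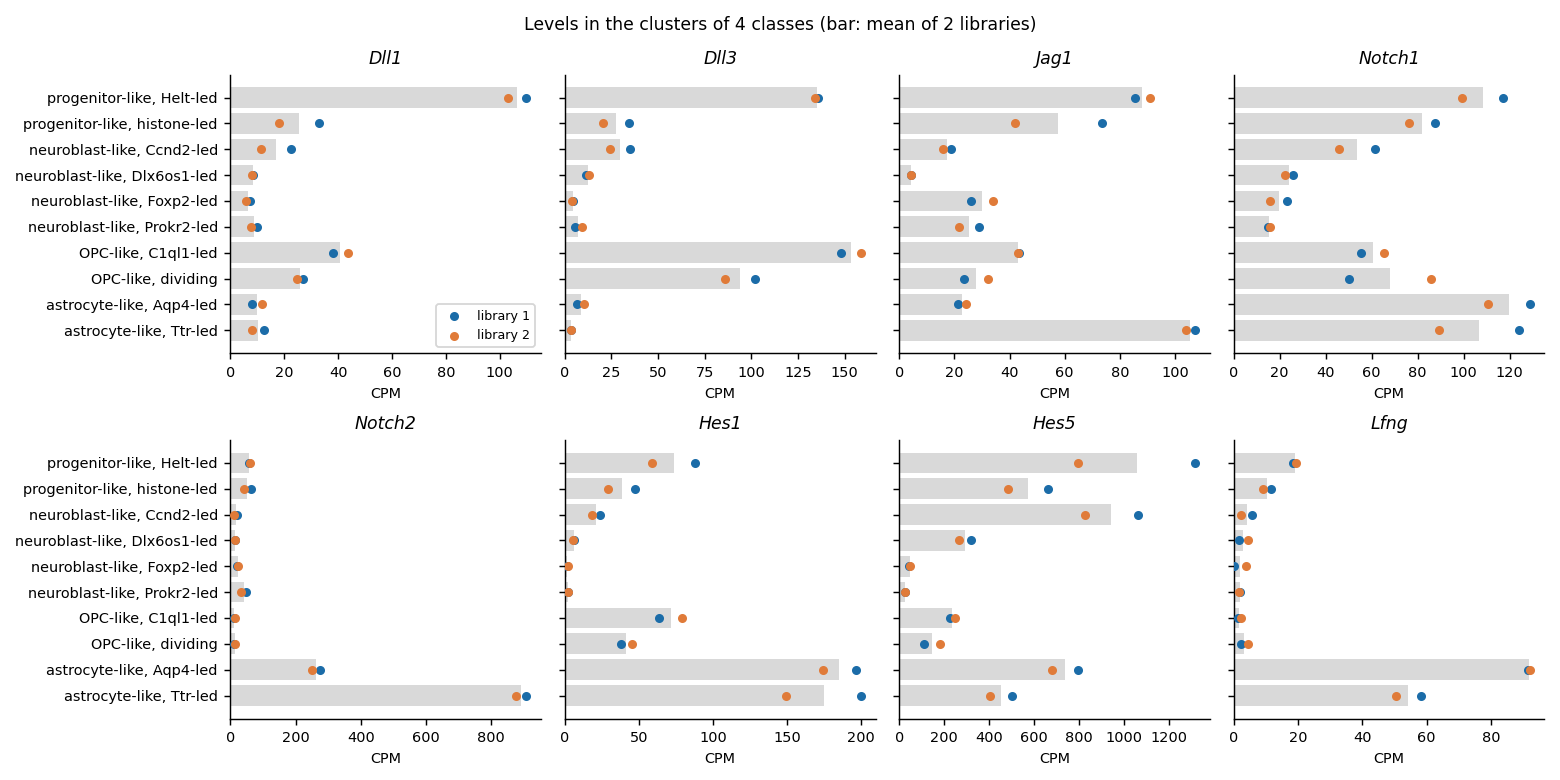
Levels of 8 of the genes in CPM in the clusters of the neural progenitor-like, neuroblast-like, oligodendrocyte precursor-like (OPC-like) and astrocyte-like classes. Points are the 2 libraries and bars their mean, each axis starts at 0, and the Helt-led cluster leads in Dll1 (106 CPM on average) while the C1ql1-led precursors lead in Dll3 (153 CPM).

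Of the 44 further pathway genes 9 were higher and 5 lower in neural progenitor-like than in neuroblast-like cells, with a median log2 fold change of 0.01 beside -0.02 for all genes. In either direction 31.8% of these genes were called, beside 19.6% of all genes. The ubiquitin ligase Neurl1b had 27.8 and 24.1 CPM in neural progenitor-like cells, against 3.60 and 3.23 CPM in neuroblast-like cells (2.88, edgeR adjusted p = 6.64e-24). The proneural factor Neurog2 and the ligand Dll4 were also higher, at 4.95 and 3.67 CPM, against 0.801 and 0.735 CPM, and 8.87 and 4.81 CPM, against 1.20 and 1.47 CPM.

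Set against astrocyte-like cells, neural progenitor-like cells were higher in Dll1 and Dll3 and lower in Notch2, Notch3, Hes1, Heyl and Lfng, so that 7 of 10 genes were called beside 10.3% of all genes called higher, 18.6% lower and 28.9% in either direction. Dll3 had 62.2 and 54.1 CPM in neural progenitor-like cells, against 5.23 and 9.18 CPM in astrocyte-like cells, an 8.07-fold ratio of means (log2 fold change 3.25 ± 0.19, edgeR adjusted p = 3.20e-65). Dll1 had 54.2 and 43.3 CPM, against 9.98 and 11.02 CPM (2.39 ± 0.18). Notch2 had 60.9 and 47.2 CPM in neural progenitor-like cells, against 559.8 and 352 CPM in astrocyte-like cells, and its mean was 8.44-fold lower (-2.92 ± 0.12, edgeR adjusted p = 4.47e-120). Lfng gave -2.47 ± 0.15, Hes1 -1.76 ± 0.13 and Notch3 -4.83 ± 0.27. Heyl rested on 1 UMI in neural progenitor-like cells, against 38 in astrocyte-like cells (-5.01 ± 0.76), and DESeq2 did not call it (adjusted p = 0.609).

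The classes were closest in Hes5 (0.23 ± 0.11, edgeR adjusted p = 0.0713) and Notch1 (-0.25 ± 0.12, edgeR adjusted p = 0.0678), which did not pass the test. Jag1, at 0.59 ± 0.13, was under the limit, and was called (1.66) where the Ttr-led cluster was left out. Of the 44 further genes 6 were higher and 10 lower, with a median of -0.05 beside -0.03 for all genes. In either direction 36.4% of these genes were called, beside 28.9% of all genes. The 4 largest were the fringe Mfng (52.4 and 47.7 CPM in neural progenitor-like cells, against 4.28 and 3.15 CPM in astrocyte-like cells) and Dll4 (8.87 and 4.81 CPM, against 1.27 and 0.525 CPM), both higher, and Hey2 (1.59 and 1.15 CPM, against 11.9 and 11.8 CPM) and the presenilin Psen2 (2.43 and 2.52 CPM, against 16 and 12.3 CPM), both lower. The fringe enzymes were thus split, Mfng being higher and Lfng lower in neural progenitor-like cells.

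Ependymal-like cells, the ciliated cells that line the ventricles, had less RNA of several members than astrocyte-like cells. None of the members was called higher and 6 were called lower (Notch1, Notch2, Notch3, Hes5, Heyl and Lfng), where 21.0% of all genes were called higher, 12.4% lower and 33.4% in either direction. Hes5 had 16.8 and 9.20 CPM in ependymal-like cells, against 662.5 and 634 CPM in astrocyte-like cells, and its mean was 49.96-fold lower (log2 fold change -5.51 ± 0.22, edgeR adjusted p = 1.08e-139). Hes1 did not pass the test, at 183 and 156 CPM in ependymal-like cells and 198 and 170.0 CPM in astrocyte-like cells (-0.12 ± 0.14, edgeR adjusted p = 0.527). Notch1 gave -1.69 ± 0.19, Notch2 -1.83 ± 0.14 and Lfng -1.36 ± 0.21. The ligands Dll1, Dll3 and Jag1 were not called, and their libraries overlapped. Heyl rested on 1 UMI in ependymal-like cells and was not called by DESeq2 (adjusted p = 0.785).

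Of the 44 further pathway genes 7 were higher and 6 lower in ependymal-like cells, with a median of 0.01 beside 0.05 for all genes. In either direction 29.5% of these genes were called, beside 33.4% of all genes. Jag2 had 26.1 and 18.4 CPM in ependymal-like cells, against 0.475 and 0.262 CPM in astrocyte-like cells (5.80), and Neurl1a 10.2 and 21.5 CPM, against 0.158 and 0.262 CPM (5.67). The feedback inhibitor Nrarp, itself a Notch target, had 3.72 and 0 CPM, against 109 and 106 CPM (-5.13).

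Oligodendrocyte precursor-like cells were set against differentiating oligodendrocyte-like cells, which have left the precursor state. Library 2 held 26 of these, so the comparison was run in a second fit that admitted classes of at least 20 cells. The precursors were higher in 7 of 10 genes (Notch1, Dll1, Dll3, Jag1, Hes1, Hes5 and Lfng) and lower in none by the call, beside 11.7% of 13410 genes called higher, 5.42% lower and 17.1% in either direction. Dll3 had 141 and 139 CPM in precursor-like cells, against 15.4 and 34.2 CPM in differentiating cells (log2 fold change 2.86 ± 0.23, edgeR adjusted p = 1.72e-33). Hes1 had 60.1 and 70.2 CPM, against 5.40 and 0 CPM (3.53 ± 0.34), and Hes5 209.8 and 229 CPM, against 14.7 and 85.5 CPM (3.35 ± 0.27). Notch1 (2.69 ± 0.30), Dll1 (1.93 ± 0.31) and Jag1 (1.93 ± 0.30) followed, with no overlap between the classes in any of them.

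Lfng rested on 17 UMIs in precursor-like cells and 0 in differentiating cells, at least 1.75-fold higher on a floor of 3 counts; its edgeR adjusted p was 0.0380, and 0.0685 without a filter on low counts, 0.156 in DESeq2 and 0.388 with doublets kept. DESeq2 did not call Hes5 (0.0973). Heyl was seen in library 1 alone: the 339 differentiating cells of library 1 held 24 Heyl UMIs, or 9.26 CPM (95% Poisson interval 5.93 to 13.8). The 26 differentiating cells of library 2 held 0, with an interval of 0 to 21.0 CPM. All precursor-like cells held 2 Heyl UMIs. Since both classes of library 2 held 0, Heyl was not called. Levels in the differentiating class depended on the processing, with Dll3 at 64.3 to 77.0 CPM in 4 alternatives, against 24.8 CPM here. Of the 44 further genes 20.5% were called in either direction, beside 17.1% of all genes. Their median was 0.46 beside 0.13 for all genes, and 9 were higher and 0 lower in the precursors. Among them were Nrarp (37.6 and 35.9 CPM in precursor-like cells, against 1.16 and 0 CPM in differentiating cells), Neurl1b (5.15 and 9.74 CPM, against 0.386 and 0 CPM) and Neurl1a (4.998 and 6.63 CPM, against 0.386 and 0 CPM).

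Ligand and receptor RNA were then looked at within clusters, by parting cells with a Dll1 UMI from cells without one. This division follows detection, so cells with a UMI can be deeper, and no test was made. In the Helt-led progenitors the depths were close (medians of 4089.5 and 4123 UMIs with Dll1, 4023.5 and 3704 without). There Dll3 was higher in cells with Dll1, at 168 CPM (95% Poisson interval 143 to 196.5) in 228 cells of library 1, against 119.9 CPM (105 to 136) in 496 cells. Library 2 gave 220.2 CPM (175 to 273) in 88 cells with Dll1, against 99.3 CPM (80.0 to 122) in 249 cells without. In both libraries the intervals of the cells with and without Dll1 did not overlap. These intervals cover the counting error of pooled UMIs and leave out the spread between cells, which was not tested.

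Hes5 in cells with Dll1 lay within counting error of the other cells, or above them. In the Helt-led progenitors it had 1289.8 CPM in cells with Dll1, against 1327 CPM without, in library 1, and 916 against 744 CPM in library 2. There the intervals overlapped in library 1 (1218.8 to 1363.9 against 1277.1 to 1378.5) and not in library 2 (821 to 1018.1 against 689.4 to 802.3). In the C1ql1-led precursors it had 289 CPM with Dll1, against 215 CPM without, in library 1, while library 2 gave 389 against 222 CPM. The intervals of the precursors did not overlap (253 to 329.6 against 202 to 229 in library 1, and 320.0 to 469 against 199 to 246 in library 2). Dll3 in these precursors had 189 and 230.1 CPM with Dll1, against 141 and 146 CPM without. In the histone-led progenitors every one of the 5 genes was higher with Dll1 in both libraries, and so was the depth (7046 and 7660 UMIs with Dll1, 5403 and 4730 without). The intervals there overlapped for Hes1 and Hes5 in library 1 and for Dll3 and Notch1 in library 2. Jag1 in these cells had 134 and 103 CPM with Dll1, against 59.0 and 33.9 CPM without. In the Helt-led progenitors Jag1 was lower with Dll1, at 74.3 and 72.5 CPM, against 90.9 and 98.2 CPM without. The C1ql1-led precursors had 52.7 and 38.9 CPM of Jag1 with Dll1, against 41.85 and 43.8 CPM without. In both of these clusters the Jag1 intervals overlapped. Hes1 did not follow Hes5 in the C1ql1-led precursors, at 52.7 CPM (37.8 to 71.5) with Dll1, against 65.5 CPM (58.4 to 73.2) without, in library 1, and 42.5 CPM (21.9 to 74.2) against 85.8 CPM (72.0 to 101.4) in library 2. In the Helt-led progenitors Hes1 had 72.2 CPM with Dll1, against 95.4 CPM without, in library 1, and 64.4 against 56.7 CPM in library 2, and all 4 pairs of intervals overlapped.

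**Figure D4:**
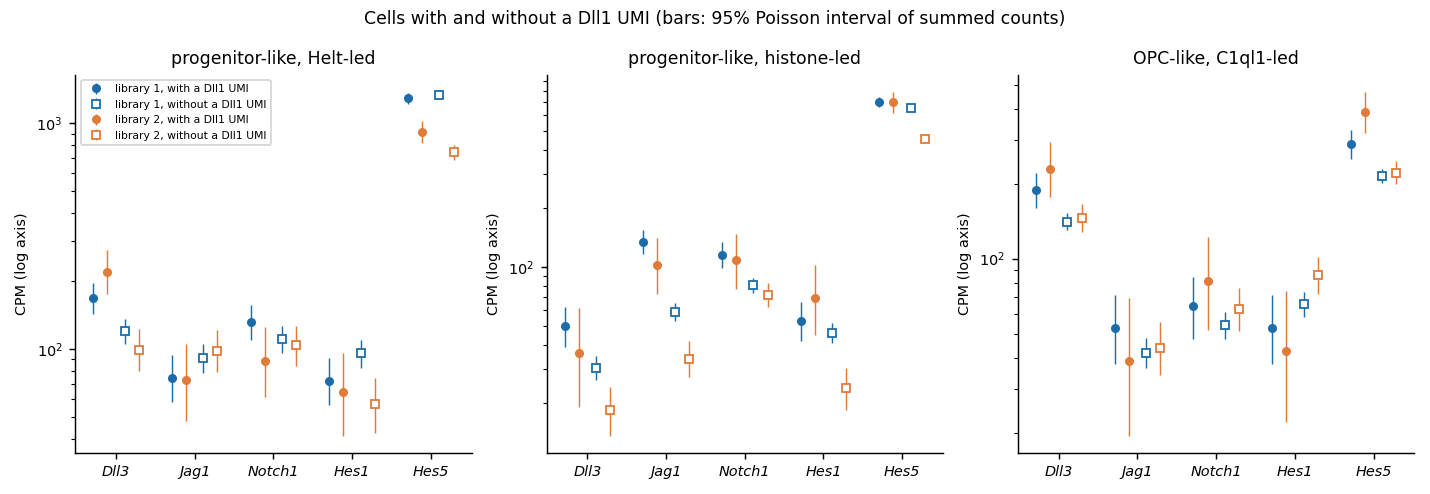
Levels of 5 genes, in CPM on a log axis, in cells with a Dll1 UMI (filled circles, left) and without one (open squares, right) in 3 clusters, by library. Bars are 95% Poisson intervals of the summed counts and cover counting error only; in the Helt-led progenitors Dll3 is 168 and 220.2 CPM in cells with Dll1, against 119.9 and 99.3 CPM in cells without.

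Across the 13 classes the members fell into a few patterns. Correlations of log2(CPM + 1) are given as descriptions, since the classes share a library, its free RNA and the clustering. Notch3 and Heyl ran together (Pearson's r = 0.944 in library 1 and 0.946 in library 2), as did Dll1 and Hes5 (0.844 and 0.787) and Notch1 and Hes1 (0.741 and 0.754). Notch2 was closest to Lfng among the members (0.675 and 0.680). Dll3 and Hes1 gave -0.182 and -0.614.

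Among all genes tested, the 2 most like each member, by the lower of the correlations in the libraries, were named by rule. Ano1 and Heyl were most like Notch3 (0.955 and 0.961 for Ano1), and Ano1 and Gpr20 most like Heyl (0.970 and 0.994 for Ano1), so that the vessel wall pattern of these members was shared by other genes. Cnih4 and Sept10 were most like Notch1 (0.887 and 0.952 for Cnih4), and Sept9 and Itgb5 most like Notch2 (0.818 and 0.794 for Sept9). For the ligands these were Ssbp1 and H2afv for Dll1 (0.874 and 0.927 for Ssbp1), Cct3 and Slc27a3 for Dll3 (0.905 and 0.906 for Cct3), and Plat and Ldlrad3 for Jag1 (0.860 and 0.879 for Plat). Hes1 was nearest to Kif1c and Hadhb (0.918 and 0.912 for Kif1c), Hes5 to Cdh20 and 3110082J24Rik (0.865 and 0.924 for Cdh20), and Lfng to Pcgf5 and Mthfd1 (0.850 and 0.846 for Pcgf5).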

How the data were processed

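The deposited values are UMI counts per gene and cell barcode, not normalised, made by the authors with Cell Ranger 6.1.2 on mm10, per the file headers and the submitters' processing notes. The sources used here do not give the annotation or how cells were called. Quality limits were 500 genes or more and a mitochondrial share of 10% or less, and the 6% with the highest Scrublet scores were removed in each library (757 and 898), since the automatic threshold marked 589 and 0. Each cell was scaled to 10000 UMIs and put on a log scale, and 2000 variable genes without the Notch lists, ribosomal and mitochondrial genes were reduced to 30 components and clustered (15 neighbours, Leiden, resolution 1; scanpy 1.11.5, igraph 0.11.9, Python 3.11.15). A cluster was named from 20 marker lists when at least 3 markers were 2-fold higher than elsewhere and at 20 CPM; these limits, and that of 85% from 1 library with a UMI ratio under 0.6 or no own marker, were set after seeing the data.

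UMIs were summed per library and class, so that n = 2. The 13 classes that reached 30 cells per library entered 1 fit with 12 residual degrees of freedom in edgeR 4.0.16 under R 4.3.3: quasi-likelihood F test, two-sided, TMM scaling, filterByExpr, the library as a block because its classes share a suspension, and Benjamini-Hochberg adjustment over 13303 genes. Genes used for clustering or as markers were not tested. The second fit, at 20 cells, held 14 classes and 13410 genes and was chosen after seeing the data. The p-values take the classes as drawn and say nothing of whether the classes exist. DESeq2 1.42.0 was an alternative, and other alternatives changed scaling, filters, clustering, doublets and the clusters in a class. The edgeR fit at 30 cells was tested on simulated data, in the comparison of astrocyte-like with oligodendrocyte precursor-like cells. The second fit and DESeq2 were not tested in this way.

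The 10 members and all lists were chosen with earlier results of these data known. Named genes were the members, up to 4 called genes of the wider pathway list with the largest change in each comparison, and the 2 genes most like each member. Of these, 1 gene of the wider list is not reported here by name.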

Additional observations from a re-analysis of the deposited data

How the results depend on the processing

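Over the alternatives that kept both libraries, 730 of the recomputed differences of the 10 genes kept their side of the call, 15 lost a call and 5 gained one. No called difference changed sign. For differences called neither here nor in the alternative, the direction was not compared. With 1 library left there is no test, and of the 120 differences recomputed no called one changed sign. A call already required the same direction in both libraries, so this outcome was set by the call and is no further check. Without the library block (no replicate block) the members called were the same in number in all 6 comparisons, for example 3 higher and 2 lower in pericyte-like against endothelial-like cells; all genes called there were 1213 and 1231, beside 1208 and 1232 with it. DESeq2 called 1 member lower in pericyte-like against endothelial-like cells. With 4000 variable genes, which left 11846 genes to test because clustering genes were not tested, 572 genes were called lower in neural progenitor-like against neuroblast-like cells, beside 993 of 13303, which moved the share of higher calls to 73.5% from 61.9%, and 982 were called higher in oligodendrocyte precursor-like against differentiating oligodendrocyte-like cells, beside 1572 of 13410. In that setting the differentiating class had 53 cells in library 2 and entered the fit at 30 cells, so the fit, the class and the genes tested all changed. In neural progenitor-like against astrocyte-like cells 1369 genes were called higher, but 727 with doublets kept and 775 without the histone-led cluster. The causes of these moves were not tested further. Library size alone as scaling moved the median of all genes to 0.14, -0.17 and 0.30 (log2) in pericyte-like against endothelial-like, neural progenitor-like against astrocyte-like, and precursor-like against differentiating cells, and DESeq2 moved it to -0.15 in the second; the counts of members called stayed the same under library size alone. Calls gained, beside those given above, were Dll3 in pericyte-like cells with doublets kept (3.47) and Jag1 in neural progenitor-like against astrocyte-like cells at 1000 genes and 5% mitochondrial UMIs (1.26). Of 333 class levels of at least 20 CPM recomputed, 34 moved over 1.5 times. At 1000 genes and 5% mitochondrial UMIs, neural progenitor-like cells averaged 88.8 CPM of Notch2, 119.9 CPM of Jag1 and 84.3 CPM of Hes1 (54.0, 66.6 and 48.3 CPM in the text's classes), and pericyte-like cells 190.2 CPM of Jag1 (311.5 CPM). Small classes limit the precision in library 2, which held 71 pericyte-like, 52 ependymal-like, 26 differentiating oligodendrocyte-like and 8 fibroblast-like cells.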
